A study of Mus musculus with 12 samples.

Results

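The common gamma chain family is a set of cytokine receptors that share the subunit encoded by Il2rg. It is taken up here with feedback genes of cytokine signalling. The 10 genes described here are the receptor chains Il7r, Il2ra, Il2rb, Il2rg, Il4ra, Il15ra and Il21r and the feedback inhibitors Cish, Socs1 and Socs3. They were taken by symbol, each matched 1 row of the 37991 genes in the count table, and all 10 passed the filter on low counts. They were measured by RNA-seq in 12 thymic T-cell lymphomas of mice, 4 non-responders and 8 responders to genetic restoration of p53. All 12 tumours came from C57BL/6 mice of the genotype p53neo/R172H;R26CreER/GNZ, so that each group carried the mutant R172H allele and a tamoxifen-inducible Cre. This Cre is expressed from R26, a locus active in most cell types, and is not confined to T cells. All had weekly tamoxifen to reactivate wild-type p53, and a tumour's response was read from its growth or shrinkage on the last scan before harvest. There was no untreated tumour, and the labels give no age, sex or tumour size.

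In T cells, the gamma chain pairs with a cytokine-specific chain and passes the signal through the kinases JAK1 and JAK3 to STAT5, STAT3 or STAT6. Interleukin 7 (IL-7) keeps early thymocytes and mature T cells alive, and its receptor chain is silenced in cortical thymocytes, which carry both CD4 and CD8, and regained after positive selection. CIS, SOCS1 and SOCS3, the products of Cish, Socs1 and Socs3, are induced by STAT proteins and restrain cytokine receptors. SOCS3 acts mainly on those of the IL-6 family and related ones. Transcripts of the 3 genes are commonly read as a trace of cytokine signalling, not only that of the gamma chain.

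Activated STAT5 binds the palindrome TTCNNNGAA, which reads the same on both strands. RefSeq promoter windows on GRCm38.p6, from 250 bases before to 50 bases after a start site, were at hand for 9 of the 10 genes, all but Il2rb. The motif was found in 3 of the 10 windows of these 9 genes (Il15ra has 2), those of Cish, Socs3 and Il7r, and in 8.3% of all 32851 windows. Cish held 2 matches, and 0.457% of all windows held 2 or more. The 3 windows with a match follow 5′ to 3′, because Cish and Il7r are the members with the lowest p in the comparison below and Socs3 is not, and capitals mark the match. The Cish window is chr9:107296409-107296708 on the plus strand, the Socs3 window chr11:117969317-117969616 on the minus strand, and the Il7r window chr15:9529827-9530126 on the minus strand.
Cish: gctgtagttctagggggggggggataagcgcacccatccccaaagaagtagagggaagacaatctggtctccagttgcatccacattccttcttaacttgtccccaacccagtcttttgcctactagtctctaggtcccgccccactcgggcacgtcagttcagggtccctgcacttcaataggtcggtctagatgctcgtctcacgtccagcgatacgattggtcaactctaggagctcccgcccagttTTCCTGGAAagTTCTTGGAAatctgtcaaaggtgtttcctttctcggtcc
Socs3: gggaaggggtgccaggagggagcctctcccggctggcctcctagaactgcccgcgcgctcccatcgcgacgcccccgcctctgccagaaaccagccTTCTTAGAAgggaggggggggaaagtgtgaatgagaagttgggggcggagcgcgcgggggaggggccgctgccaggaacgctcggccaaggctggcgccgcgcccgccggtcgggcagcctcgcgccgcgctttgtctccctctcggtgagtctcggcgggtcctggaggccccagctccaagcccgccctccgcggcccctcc
Il7r: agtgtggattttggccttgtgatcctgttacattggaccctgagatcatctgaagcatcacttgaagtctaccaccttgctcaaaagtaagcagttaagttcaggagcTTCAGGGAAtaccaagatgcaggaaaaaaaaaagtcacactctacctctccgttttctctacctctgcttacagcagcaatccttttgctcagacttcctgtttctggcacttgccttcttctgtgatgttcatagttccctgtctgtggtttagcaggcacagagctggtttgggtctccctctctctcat
Counted from 0 at the first base of the transcript, the matches began at 0 and 11 in Cish, at -154 in Socs3 and at -142 in Il7r. A match is a string of letters and not a measured binding site, and the windows follow RefSeq start sites, which for all 3 genes lie inside the GENCODE gene and not at its outer end. The other 6 genes had none of these letters in the window searched.

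Libraries held 20796860 to 30265753 counts. T-cell transcripts were present in every tumour, as the summed level of 7 T-cell genes was 1468 to 2092 CPM (the usual depth-scaled count unit, computed on TMM-scaled totals) in non-responders and 623 to 2003 CPM in responders. Rag1 levels divided the responders. Rag1, the recombinase gene of cortical thymocytes, stood at 1498, 168, 1756 and 1264 CPM in non-responders 1 to 4. It was at 895, 1204 and 1262 CPM in responders 1 to 3, but between 0.410 and 2.91 CPM in responders 4 to 8. Trp53, the restored gene, averaged 69.2 ± 4.36 CPM in non-responders and 69.3 ± 20.8 CPM in responders (SD, n = 4 and 8), and the counts do not separate its alleles. In bulk samples such as these, fewer cells of a type and less RNA per cell cannot be told apart.

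No member passed the edgeR quasi-likelihood test over all genes. Of the 10 genes, 7 were lower on average in non-responders and 3 higher, with a median log2 ratio of -0.77 (log2 fold change, non-responder minus responder), against -0.02 over all 18612 genes tested. In edgeR 0 of the 10 had an adjusted p under 0.05, as for all 18612 genes (0%), while 5 had an unadjusted p under 0.05, against 23.8% of all genes. These 5 were Il7r, Cish, Il2rb, Il21r and Il4ra, all lower in non-responders, where 16.1% of all genes lay. The 7 of 10 that were lower stand against 51.5% of all genes. The count of 5 was 3 without non-responder 3 or 4, or without responder 6, 7 or 8. DESeq2 called 3 members, Il7r, Cish and Il2rb, all lower, where it called 13.3% of all genes it tested, 10.5% lower and 2.82% higher. The limma-voom test with quality weights called Il7r and Cish, both lower, where it called 9.26% of all genes, 4.71% lower and 4.55% higher. No member had CPM values that were fully apart between the groups. Over all genes 2.13% did, 1.18% lower and 0.951% higher, so 0 of 10 is near that share.

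**Figure D1:**
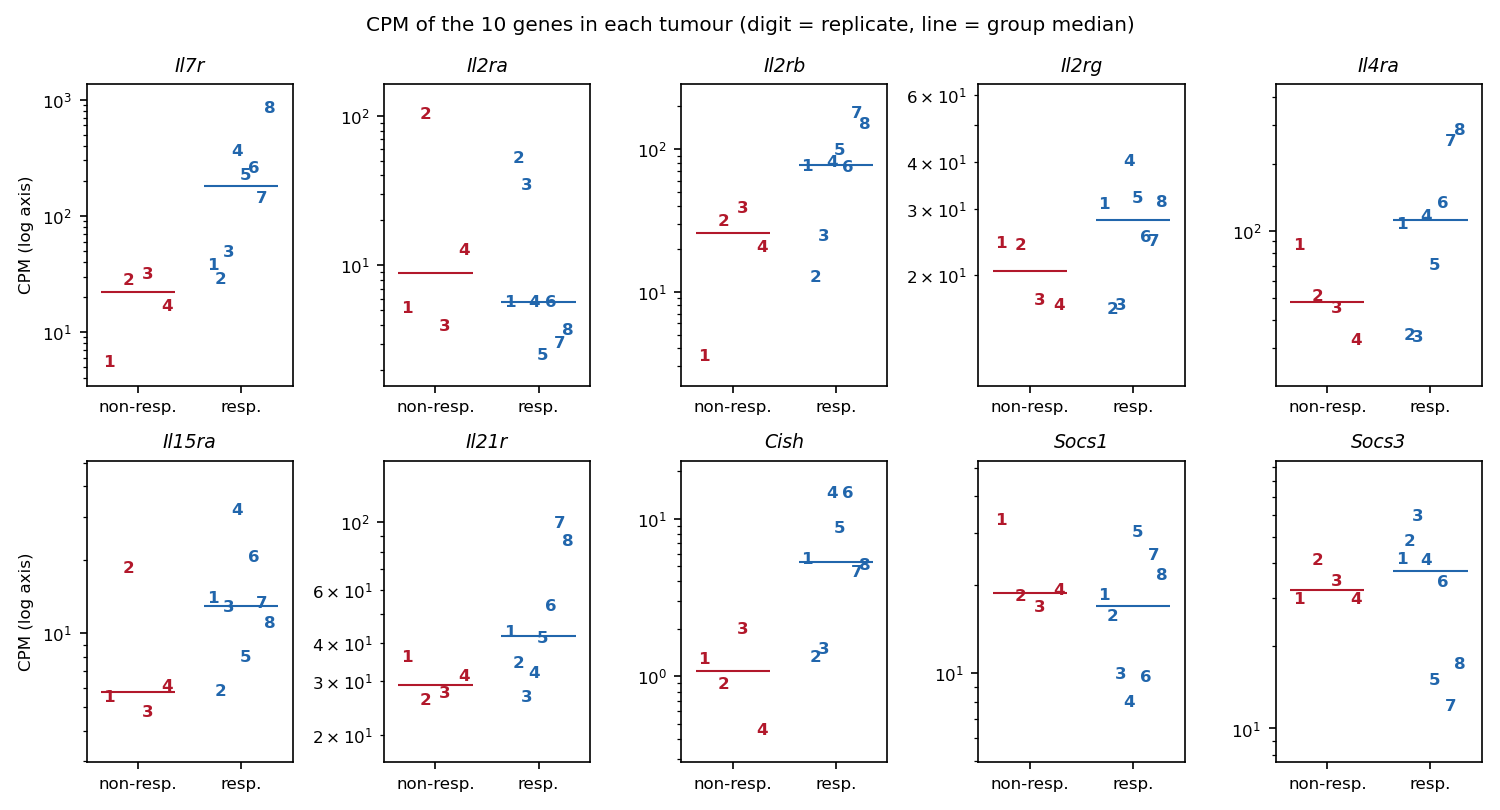
CPM of each of the 10 genes in every tumour on log axes, with non-responders on the left and responders on the right. Each digit is the replicate number of a tumour and each line the median of its group. For Il7r, Il2rb and Cish, most responders lie above the 4 non-responders, while responders 2 and 3 lie among or near them.

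Il7r encodes the alpha chain of the IL-7 receptor (ENSMUSG00000003882, chromosome 15 from 9505788 to 9530176, GRCm38). It had 5.51, 27.6, 31.2 and 16.6 CPM in the non-responders, against a lowest of 28.5, a median of 182 and a highest of 845 CPM in the responders. Of the 8 responders, 7 lay above the highest non-responder, and responder 2 lay within their range. Responders 1 and 3, at 37.3 and 48.3 CPM, were just above it, whereas responders 4 to 8 stood at 142 CPM or more. Its log2 ratio was -3.58 (SE 0.98, edgeR adjusted p = 0.117), with an adjusted p of 0.000687 in DESeq2 and 0.0437 in limma-voom. The 6 mature T-cell markers were all lower on average in non-responders too, 3 of them at an unadjusted edgeR p under 0.05, with summed levels of 104 to 184 CPM in non-responders and 147 to 424 CPM in responders, and their part in the Il7r difference was not tested. The 10 cortical thymocyte markers were all higher on average in non-responders, 0 of them at an unadjusted edgeR p under 0.05. They summed to 1646 to 5909 CPM in non-responders and 464 to 4471 CPM in responders. With their mean log2 CPM as a covariate, the log2 ratio of Il7r was -0.99 (edgeR adjusted p = 0.739). With the mean score of 7 lists of other cell types as a covariate it was -3.67 (SE 1.13, edgeR adjusted p = 0.704).

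Il2rb, the chain shared by the IL-2 and IL-15 receptors, had a similar order of tumours (ENSMUSG00000068227, chromosome 15 from 78479256 to 78495271). It had 3.49, 31.1, 38.2 and 20.3 CPM in the non-responders, against a lowest of 12.6, a median of 77.9 and a highest of 177 CPM in the responders. Responders 2 and 3 lay within the range of the non-responders, and the other 6 responders above it. Responder 1, high in Rag1, was among those 6 at 75.4 CPM. The groups differed by a log2 ratio of -1.89 (SE 0.71, edgeR adjusted p = 0.143), with an adjusted p of 0.0355 in DESeq2 and 0.0539 in limma-voom. With the cortical markers as a covariate it was -0.69. Natural killer cells also use this chain. Of 8 tested markers of natural killer and cytotoxic cells 6 were lower on average in non-responders, 5 of them at an unadjusted edgeR p under 0.05. The 9 listed summed to 100.1 to 180.4 CPM in non-responders and 28.5 to 438 CPM in responders. Most of the sum in non-responders was Gzma, one of the other 2, at 74.2 to 160 CPM in non-responders and 3.19 to 245 CPM in responders. Ncr1, which defines natural killer cells, did not exceed 1.32 CPM in any tumour and was listed at 0 in 6 of the 12. The part of these cells in the result was not tested.

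Il2ra, the alpha chain that completes the high-affinity IL-2 receptor, was high in 3 tumours drawn from both groups and low in the rest (ENSMUSG00000026770, chromosome 2 from 11642807 to 11693193). It had 5.18, 102, 3.91 and 12.7 CPM in the non-responders, against a lowest of 2.497, a median of 5.65 and a highest of 52.0 CPM in the responders. Non-responder 2 was the highest of the 12, followed by responders 2 and 3 at 52.0 and 34.1 CPM. The groups overlapped, with a log2 ratio of 1.14 (SE 0.997, edgeR adjusted p = 0.505) that turned to -0.94 without non-responder 2 and was 1.84 without responder 2. Il2ra also marks regulatory T cells and immature thymocytes. Foxp3, which defines regulatory T cells, was between 1.57 and 2.48 CPM in the non-responders and between 0.717 and 3.06 CPM in the responders. In non-responder 2 and in responders 2 and 3 it was at 1.57, 2.06 and 0.717 CPM. Of 5 regulatory T-cell markers 4 were lower on average in non-responders, none was at 0 in any tumour, and their sum was 12.0 to 235 CPM in non-responders and 10.6 to 121 CPM in responders. Most of the highest sum in each group was Ctla4, the other marker, at 225 CPM in non-responder 1 and 105 CPM in responder 5.

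Il2rg, the common chain itself, varied least of all members across the 12 tumours, by 2.47-fold from the lowest to the highest (ENSMUSG00000031304, chromosome X from 101264378 to 101268255). It had 24.2, 24.0, 17.1 and 16.6 CPM in the non-responders, against a lowest of 16.2, a median of 27.98 and a highest of 40.1 CPM in the responders. Responders 2 and 3 were again at or below the level of the non-responders. This gave a log2 ratio of -0.40 (SE 0.25, edgeR adjusted p = 0.345). It was -0.05 with the cortical markers and 0.07 with the other-cell score as a covariate. Its exons share 728 bases with Gm20489 on the same strand, which had at most 2 counts in any library.

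Il4ra and Il21r, which encode the specific chains of the IL-4 and IL-21 receptors, showed the most alike profiles of all 45 pairs of members. Their log2 CPM, standardised over the 12 tumours, differed by a root-mean-square of 0.479 SD, against a median of 1.24 SD over the pairs. The genes are neighbours on chromosome 7, with Il4ra from 125552120 to 125579474, Il21r from 125603429 to 125633570, 24.0 kb between them and no annotated gene in the gap. The other neighbouring pair, Il2ra and Il15ra, lies 12.1 kb apart on chromosome 2 and differed by 1.31 SD, in place 26 of the 45 pairs. These distances rest on 12 tumours that share libraries and depth across genes.

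Il4ra had 86.5, 51.0, 45.1 and 32.4 CPM in the non-responders, against a lowest of 33.4, a median of 112 and a highest of 284 CPM in the responders. Responders 7 and 8, at 253 and 284 CPM, stood above the rest, and 3 responders lay within the range of the non-responders. Il21r had 36.02, 26.0, 27.3 and 31.2 CPM in the non-responders, against a lowest of 26.5, a median of 42.4 and a highest of 99.4 CPM in the responders. The same pair of responders, 7 and 8, was highest. On the log2 scale the ratio was -1.26 for Il4ra (SE 0.57, edgeR adjusted p = 0.203) and -0.79 for Il21r (SE 0.35, edgeR adjusted p = 0.194). With the cortical markers as a covariate these were -0.12 and -0.24, and with the other-cell score as one -1.19 and -0.91. Il4ra is also used by macrophages and B cells, whose markers did not pass in edgeR. On average 6 of 8 macrophage markers were lower in non-responders, 2 of them at an unadjusted p under 0.05, with a list median of -0.16. All 6 B-cell markers were lower on average at that p. The macrophage genes summed to 495 to 1396 CPM in non-responders and 436 to 1691 CPM in responders, and the B-cell genes to 7.98 to 38.4 CPM in non-responders and 17.2 to 218 CPM in responders. None of these markers was at 0 in any tumour, and their part in the result was not tested. Exons of Il4ra share 571 bases with Gm44876 on the opposite strand, which was not analysed here.

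Il15ra, the high-affinity chain for IL-15, had 5.46, 18.4, 4.74 and 6.08 CPM in the non-responders, against a lowest of 5.80, a median of 13.0 and a highest of 31.7 CPM in the responders. Non-responder 2 stood among the upper responders, while the other 3 non-responders were at or near the lowest responder. The fitted log2 ratio was -0.75 (SE 0.49, edgeR adjusted p = 0.361). It was -1.41 without non-responder 2, -0.48 without responder 4, -0.20 with the cortical markers as a covariate and 0.08 with the other-cell score as one. Il15ra lies on chromosome 2 from 11705290 to 11734317.

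**Figure D2:**
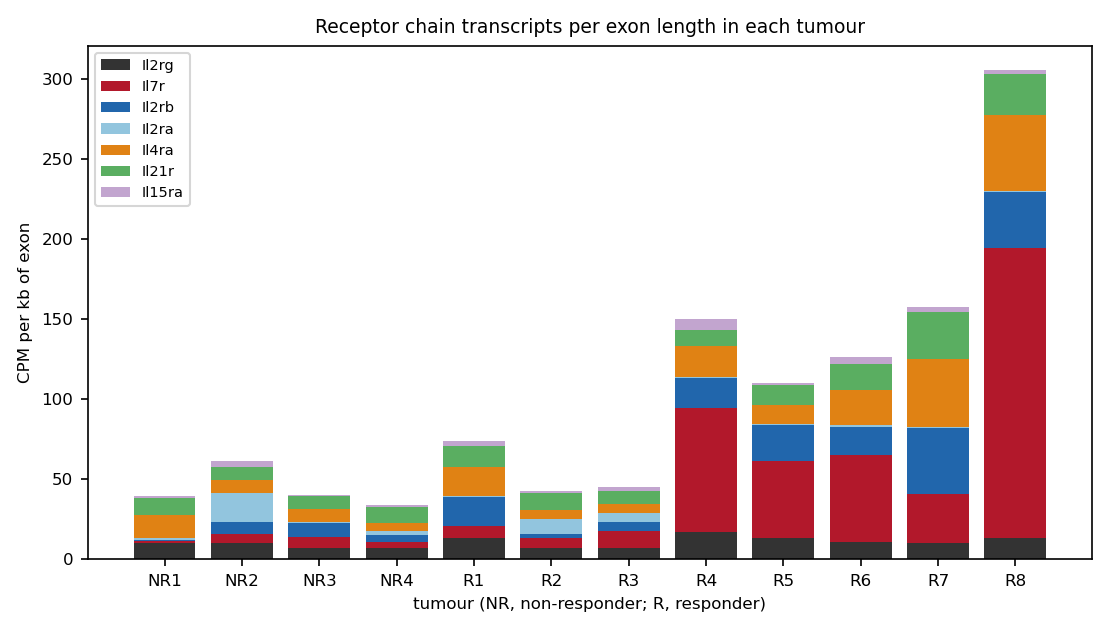
Stacked CPM per kilobase of exon of the 7 receptor chains in each tumour, non-responders (NR) on the left and responders (R) on the right. The stack is 33.6 to 61.5 high in non-responders and 42.3 to 306 in responders, and Il7r is the tallest layer in responders 3, 4, 5, 6 and 8.

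Divided by exon length, levels can be set side by side between genes. The 7 receptor chains summed to 39.5, 61.5, 40.3 and 33.6 CPM per kilobase in the non-responders. In the responders the lowest sum was 42.3 and the highest 306 CPM per kilobase. The chain with the highest level was Il4ra, Il2ra, Il2rb and Il21r in non-responders 1, 2, 3 and 4, so that no pair of them shared it. It was Il7r in responders 3, 4, 5, 6 and 8, Il4ra in responders 1 and 7 and Il21r in responder 2. Il7r made up 2.99%, 9.63%, 16.6% and 10.6% of the sum in the non-responders, and 10.9% to 59.3% in the responders. Relative to the common chain, the level of Il7r per kilobase was 0.117, 0.589, 0.932 and 0.513 times that of Il2rg in the non-responders. The same ratio was 0.621, 0.898 and 1.49 in responders 1 to 3 and 2.96 to 13.9 in responders 4 to 8, with 13.9 in responder 8. In responders 6, 7 and 8, 4 specific chains (Il7r, Il2rb, Il4ra and Il21r) stood above Il2rg. Over the 12 tumours the median levels per kilobase were 13.1 for Il2rb, 13.1 for Il4ra, 10.6 for Il21r, 10.2 for Il2rg, 9.19 for Il7r, 2.67 for Il15ra and 0.989 for Il2ra. The ranges of the first 5 overlapped, so their order does not separate them.

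Among the feedback genes, Cish stood apart from Socs1 and Socs3. Cish encodes CIS, an SH2 protein induced by STAT5 that dampens IL-2 and IL-15 signalling (ENSMUSG00000032578, chromosome 9 from 107296026 to 107302784). It had 1.28, 0.883, 1.98 and 0.454 CPM in the non-responders, from 10 to 43 counts each, against a lowest of 1.32, a median of 5.29 and a highest of 14.5 CPM in the responders. Responders 2 and 3 fell within the range of the non-responders and the other 6 responders lay above it, with responders 4 and 6 highest at 14.5 CPM each. The groups differed by a log2 ratio of -2.59 (SE 0.73, edgeR adjusted p = 0.117), with an adjusted p of 0.00247 in DESeq2 and 0.0393 in limma-voom. It was -1.26 with the cortical markers and -0.74 with the other-cell score as a covariate. All 7 neutrophil, 8 dendritic-cell and 6 B-cell markers were lower on average in non-responders, and 6, 6 and 6 of them had an unadjusted edgeR p under 0.05, but none passed after adjustment. The neutrophil genes summed to 9.18 to 26.9 CPM in non-responders and 25.7 to 676 CPM in responders, and their part in the Cish difference was not tested. Exons of Cish share 261 bases with Gm17040 and 479 with Gm17041 on the opposite strand, which had at most 9 and 0 counts in any library.

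Socs1, which encodes a strong inhibitor of JAK kinases and is abundant in cortical thymocytes, did not follow Cish (chromosome 16 from 10782240 to 10785536). It had 33.0, 18.2, 16.7 and 19.1 CPM in the non-responders, against a lowest of 7.94, a median of 16.9 and a highest of 30.01 CPM in the responders. Non-responder 1 was the highest of all 12, and 4 responders lay below every non-responder. The log2 ratio of 0.34 (SE 0.36, edgeR adjusted p = 0.588) was 0.07 without non-responder 1 and 0.51 without responder 5. Responders 4 and 6, highest in Cish, were at 7.94 and 9.66 CPM, the lowest pair for Socs1.

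Socs3, an inhibitor of IL-6 family and related receptors that act through STAT3, had 29.5, 40.9, 34.5 and 29.5 CPM in the non-responders. In the responders its lowest, median and highest were 12.0, 37.5 and 59.1 CPM. The responders spread around the non-responders on both sides, with 3 above (responders 1, 2 and 3), 3 below (responders 5, 7 and 8) and 2 within. The coefficient of variation was 16.2% in non-responders and 51.3% in responders. Means were 33.6 ± 5.45 CPM in non-responders and 33.5 ± 17.2 CPM in responders, a log2 ratio of 0.01 (SE 0.39, edgeR adjusted p = 0.996). Its sign turned under upper-quartile scaling (-0.05), and without non-responder 2 or responder 5, 7 or 8 (lowest -0.12). Responders 7 and 8, highest in Il4ra and Il21r, were among the lowest for Socs3, and Il21r and Socs3 were the least alike of the 45 pairs, at 1.80 SD. Socs3 lies on chromosome 11 from 117966079 to 117970047.

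**Figure D3:**
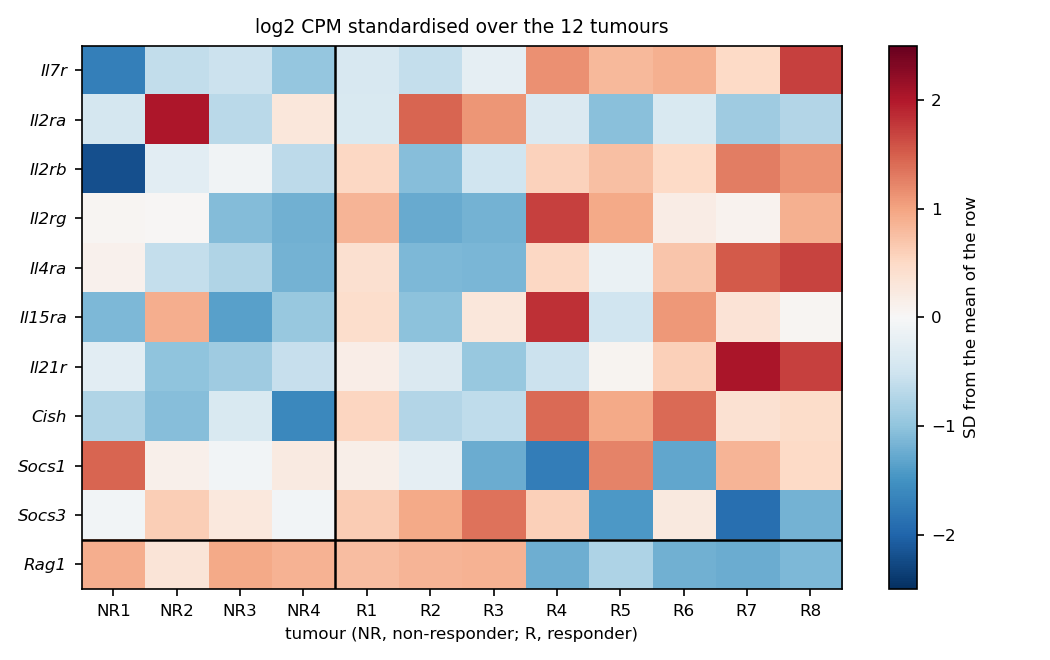
log2 CPM of the 10 genes and of Rag1, standardised over the 12 tumours, with red above and blue below the mean of the row. Il7r, Il2rb and Cish are mostly blue in the 4 non-responders and in responders 2 and 3, where Rag1 is red, whereas Il2ra is red in non-responder 2 and responders 2 and 3.

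Across tumours, Il7r, Il2rb and Cish went with low Rag1, with exceptions. Responders 4 to 8, where Rag1 was 2.91 CPM or less, had 142 to 845 CPM of Il7r, 74.5 to 177 CPM of Il2rb and 4.58 to 14.5 CPM of Cish. The same tumours had the lowest summed T-cell genes of the 12, at 623 to 926 CPM, against 1168 CPM or more elsewhere. The other-cell score was 4.16 to 5.29 in responders 4 to 7, 3.21 in responder 8 and 5.15 in responder 1. It was 2.57 to 2.98 in the rest, and the part of either in these levels was not tested. Responders 1 to 3, where Rag1 was 895 CPM or more, had 28.5 to 48.3 CPM of Il7r. Responder 1 departed from the other Rag1-high tumours, with 75.4 CPM of Il2rb, 108 CPM of Il4ra and 5.54 CPM of Cish. In that tumour the markers of dendritic cells summed to 1601 CPM, the highest of the 12, and those of natural killer and cytotoxic cells to 438 CPM, also the highest, of which Gzma and Gzmb gave 181 and 182 CPM. Its macrophage markers, at 1691 CPM, were the highest too, while its neutrophil, B-cell, fibroblast and endothelial sums were not. Within the non-responders, non-responder 1 had the lowest Il7r and Il2rb of all 12 tumours at 5.51 and 3.49 CPM, and non-responder 2, the lowest of the 4 in Rag1 at 168 CPM, had 27.6 and 31.1 CPM. These are values of single tumours, and no test was made between sets of tumours chosen by Rag1.

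**Figure D4:**
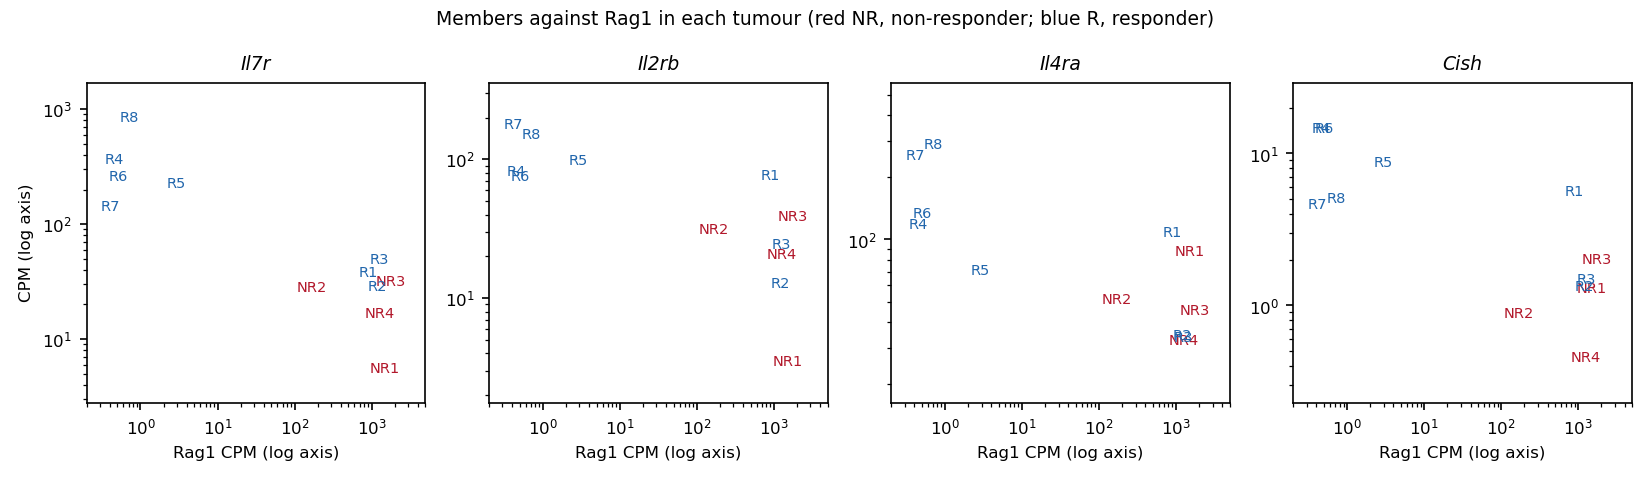
CPM of Il7r, Il2rb, Il4ra and Cish against CPM of Rag1, both on log axes, each label a tumour (NR, non-responder; R, responder). Responders 4 to 8 lie on the left with Rag1 at 2.91 CPM or less, and responders 1 to 3 share the right side with the non-responders. For Il7r, responders 4 to 8 lie above all other tumours. For Il2rb, Il4ra and Cish, responder 1 lies above the lowest of them, and for Il4ra non-responder 1 does too.

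The transcripts of the ligands were rare. The list of 8 ligand genes also held Il13 and Tslp, which do not signal through the gamma chain and whose chains Il13ra1 and Crlf2 are given below. Of the 8 genes, 3 passed the filter, Il13 among them. All 3 had lower means in non-responders with an unadjusted edgeR p under 0.05, where 16.1% of all genes lay. Il7, made mainly by stromal and epithelial cells, had 1.38, 1.03, 2.62 and 1.36 CPM in the non-responders, against a lowest of 1.18, a median of 7.66 and a highest of 17.3 CPM in the responders. Only responder 3 lay within the range of the non-responders. Its log2 ratio was -2.25 (SE 0.59, edgeR adjusted p = 0.117). Il15, trans-presented by myeloid cells on the IL-15 receptor alpha chain, had 1.24, 1.23, 2.58 and 1.04 CPM in the non-responders and 0.970 to 9.27 CPM in the responders. The log2 ratio of Il15 was -1.78 (SE 0.59, edgeR adjusted p = 0.123). Il13, a type 2 cytokine, was at 0.505 CPM or less in every non-responder, while responders 4, 6 and 8 had 5.69, 4.80 and 3.25 CPM (log2 ratio -2.92, edgeR adjusted p = 0.134).

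The other 5 ligand genes, Il2, Il4, Il9, Il21 and Tslp, did not pass the filter. Il2 had at most 9 counts in a library, in responder 1, and was listed at 0 in non-responders 2 and 4 and responders 2, 3 and 8. Il4 was at 0.0920 to 0.229 CPM in the non-responders, and reached 2.31 and 4.08 CPM in responders 4 and 6, from 71 and 120 counts. Responders 4 and 6 also had the highest Il21, at 0.748 and 1.05 CPM, and the highest Il13 of the responders. They were the pair with the highest Cish.

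The 3 other receptor chains differed among themselves. Il13ra1, which forms the IL-13 receptor with the Il4ra chain and is used mainly outside T cells, had 7.39, 7.31, 13.4 and 8.99 CPM in the non-responders, against a lowest of 11.7, a median of 29.3 and a highest of 48.8 CPM in the responders. Its log2 ratio was -1.59 (SE 0.39, edgeR adjusted p = 0.117), the lowest p of the 3. Crlf2, the TSLP receptor chain, had a log2 ratio of -0.78 (edgeR adjusted p = 0.347). Il9r, the specific chain of the IL-9 receptor, was at 33.0 ± 16.3 CPM in non-responders and 32.4 ± 25.6 CPM in responders (SD, n = 4 and 8), ranging from 4.62 CPM in responder 7 to 71.2 CPM in responder 4.

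Downstream of the receptors, 7 of 10 kinase and STAT genes were lower on average in non-responders, where 51.5% of all genes were, and none passed in edgeR. Jak3, the kinase bound to the gamma chain, was at 23.8 ± 3.93 CPM in non-responders and 47.2 ± 23.0 CPM in responders (log2 ratio -0.99, SE 0.35, edgeR adjusted p = 0.134). Jak2 had a log2 ratio of -0.70 and Stat4, the transducer of IL-12, one of -2.97 (SE 0.80, edgeR adjusted p = 0.117). DESeq2 and limma-voom gave adjusted p of 0.0605 and 0.0423 for Jak2, and of 0.00117 and 0.0550 for Stat4. Stat6, which serves IL-4 and IL-13, averaged higher in non-responders, at 138, 233, 122 and 165 CPM, against 94.1 to 126 CPM in the responders. Its log2 ratio was 0.51 (SE 0.17, edgeR adjusted p = 0.120), and DESeq2 and limma-voom gave adjusted p of 0.0312 and 0.0798. Stat5a and Stat5b, named here after their values were seen, had log2 ratios of 0.45 and 0.43 (edgeR adjusted p = 0.277 for each). They encode the main transducers of IL-7 and IL-2.

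**Figure D5:**
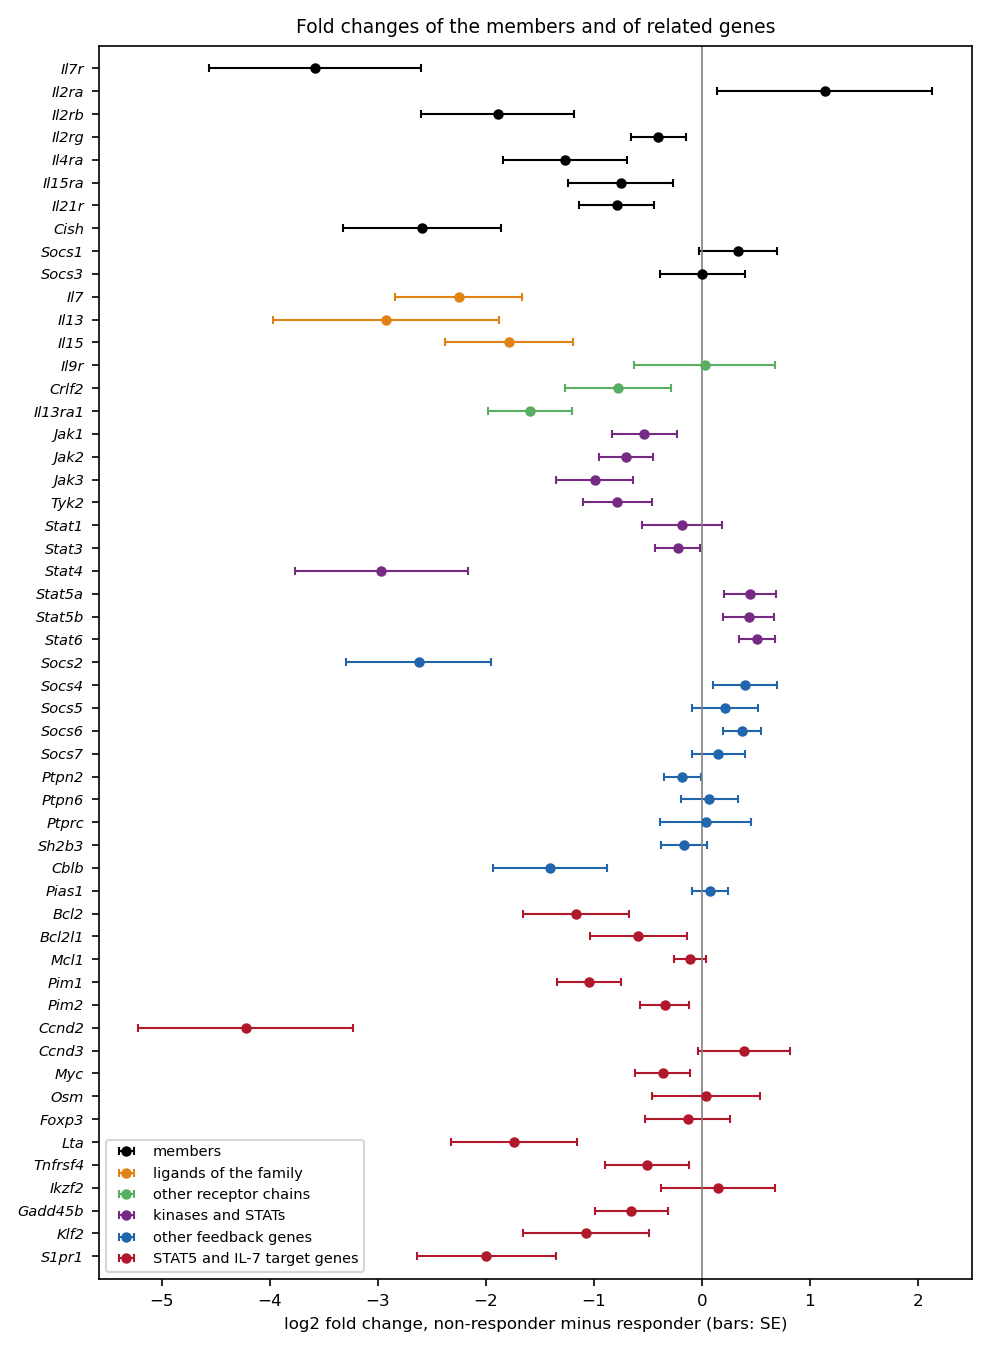
log2 fold change (non-responder minus responder) of the 10 members and of the related genes that passed the filter, with bars for the standard error from edgeR and colours for the lists. Ccnd2, Il7r, Stat4, Il13, Socs2 and Cish lie farthest to the left, while Socs1, Socs3 and most other inhibitor genes lie near 0.

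Of 11 further feedback genes 4 were lower and 7 higher on average in non-responders. Socs2, a STAT5-induced relative of Cish, had a log2 ratio near that of Cish at a higher CPM. It had 2.57, 2.70, 3.77 and 2.04 CPM in the non-responders, against a lowest of 2.91, a median of 14.9 and a highest of 41.8 CPM in the responders. Responders 2 and 3 lay within the range of the non-responders. The log2 ratio of Socs2 was -2.62 (SE 0.67, edgeR adjusted p = 0.117), and DESeq2 and limma-voom gave adjusted p of 0.001002 and 0.0390. Cblb, a ubiquitin ligase that restrains T-cell activation, had a log2 ratio of -1.41 (edgeR adjusted p = 0.143), and Socs6 and Socs4 had 0.37 and 0.40.

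Of 16 genes listed here as targets of STAT5 or IL-7 signalling, 13 were lower and 3 higher on average in non-responders. Over all genes 51.5% were lower. An unadjusted edgeR p under 0.05 was reached by 5 of the 13, where 16.1% of all genes were lower at that p. This list shares genes with the mature T-cell markers, among them S1pr1, which counts at that p in both. It also holds Foxp3, a regulatory T-cell marker. Ccnd2, the gene of cyclin D2, had 11.1, 5.35, 19.6 and 4.99 CPM in the non-responders, against a lowest of 10.4, a median of 173 and a highest of 519.9 CPM in the responders. Responder 2 was the one responder within the range of the non-responders. This gave a log2 ratio of -4.22 (SE 0.99, edgeR adjusted p = 0.117). Pim1, a survival kinase gene induced by STAT5, was at 14.7 ± 3.89 CPM in non-responders and 30.4 ± 9.87 CPM in responders (log2 ratio -1.05, SE 0.30, edgeR adjusted p = 0.117). S1pr1, the receptor for egress from the thymus, and Lta, lymphotoxin alpha, had log2 ratios of -1.996 and -1.74. The mean level of Bcl2, the survival gene by which IL-7 is best known to act and named here after its values were seen, was 14.6 ± 8.81 CPM in non-responders and 32.7 ± 18.6 CPM in responders (log2 ratio -1.16, edgeR adjusted p = 0.180). Of the 48 genes in these 5 lists 43 were tested, and edgeR called 0 of them, as it did over all genes (0%). DESeq2 called 10 of the 43 lower and 1 higher, where it called 10.5% of all genes lower and 2.82% higher. The 10 were Ccnd2, Il7, Il13, Il13ra1, Il15, Lta, Pim1, S1pr1, Socs2 and Stat4, and the 1 was Stat6. The limma-voom test called 7 lower and 0 higher, where it called 4.71% and 4.55% of all genes in these directions. These 7 were Ccnd2, Il7, Il13ra1, Il15, Jak2, Pim1 and Socs2.

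The genes with profiles closest to those of 4 members were picked among 15054 tested genes with an approved name. Standardised profiles over the 12 tumours were compared by root-mean-square difference, and shared regulation was not tested. For Il7r the nearest were Dhh (0.309 SD), Fam78b (0.313 SD), Myo18b (0.332 SD) and Calcrl (0.351 SD). In non-responders Dhh was at 0.0908 to 0.506 CPM, Fam78b at 0.459 to 0.999 CPM and Myo18b at 0.275 to 1.32 CPM, which are low levels. Calcrl, a receptor gene of the calcitonin family, was at 12.3 to 18.0 CPM in non-responders and 15.2 to 105 CPM in responders. For Il2rb they were Vti1b (0.226 SD), Arsb (0.315 SD), Sema4a (0.318 SD) and Cxcr3 (0.370 SD), the last a chemokine receptor gene of effector T cells. Cxcr3 was at 0.275 to 7.73 CPM in non-responders, and reached 168 and 164 CPM in responders 7 and 8. For Cish they were Ms4a8a (0.163 SD), Gda (0.164 SD), Gab1 (0.174 SD) and Lncpint (0.183 SD). For Socs1 the nearest, Nme7, was farther away at 0.524 SD, and Zfp983, Slc43a1 and the pseudogene Rps2-ps10 followed at 0.533, 0.533 and 0.534 SD.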

How the data were processed

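The authors deposited 1 table for the RNA-seq of the 12 tumours, holding unnormalised counts by Ensembl identifier. Per the submitters' processing notes the tools were HTSeq and DESeq, without versions. These notes name the build NCBIM37 and the labels' extract protocol mm10, so the build is not settled; no aligner or strand setting is stated in the sources used here, and reads in overlaps with antisense genes cannot be assigned. Symbols, exon lengths and coordinates came from GENCODE M21 (GRCm38), with 32919 of 37991 identifiers matched. Total counts ran from 20796860 to 30265753, and no molecular identifiers are named. No pair of libraries was a repeat (chi-square per degree of freedom at least 58.8 over 66 pairs). Replicates are tumours numbered in deposit order, and the series' design text calls them independent.

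Genes were filtered with filterByExpr (18612 kept), scaled by TMM and tested with edgeR 4.0.16 (R 4.3.3) by the robust quasi-likelihood F test, group as the only term, two-sided, Benjamini-Hochberg over all genes, threshold 0.05. The standard error (SE) is the log2 fold change over the square root of F. CPM were computed on the TMM-scaled totals, with a prior count of 2 for log2 CPM. Alternatives included limma-voom 3.58.1 and DESeq2 1.42.0. Genes named outside the members are Rag1, Trp53, all ligands, up to 4 genes of lowest p per related list, the 4 nearest profiles and the defining gene of a marker list beside a member (Foxp3, Ncr1). Others (Stat5a, Stat5b, Bcl2, Gzma, Gzmb and Ctla4) were chosen after their values were seen. The members, lists and tests were chosen with earlier results of these data known.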

Additional observations from a re-analysis of the deposited data

Results flagged for a closer look

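On the CPM scale a tumour lay far from the rest of its group by Dixon's test in 4 of 20 groups of values, each a member within 1 response group. Chance flags about 1 in 20 where values are normal, and CPM are skewed. On log2 CPM, a scale tried after seeing the data, none of the 4 passed: the gap over the range was 0.252 for Il7r (critical value 0.526), and 0.641 for Il2ra, 0.817 for Il15ra and 0.806 for Socs1 (critical value 0.829). Il7r stood at 845 CPM in responder 8, where the next responder had 360.4 CPM. Il2ra stood at 102 CPM in non-responder 2, where the next non-responder had 12.7 CPM. Il15ra in the same tumour stood at 18.4 CPM, where the next non-responder had 6.08 CPM. Socs1 stood at 33.0 CPM in non-responder 1, where the next non-responder had 19.1 CPM. Without the tumour concerned, the log2 fold change was -2.95 for Il7r, -0.94 for Il2ra, -1.41 for Il15ra and 0.07 for Socs1.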

How the results depend on the processing

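Il7r, Il2rb, Il4ra, Il21r and Cish were lower, and Socs1 higher, in non-responders under all 10 alternatives and without each tumour in turn. Calls depended on the tool. DESeq2 called 2462 genes and limma-voom 1723, where edgeR called 0 (4428 at an unadjusted p under 0.05), and 3 and 2 of the 10 members. DESeq2 called 10 related genes lower and 1 higher, limma-voom 7 lower. In DESeq2, Il7r was at -3.56, Il2rb at -1.86 and Cish at -2.56, and in limma-voom Il7r at -3.23 and Cish at -2.67. DESeq2 gave Il2ra no p. The members with an unadjusted p under 0.05 were 3 with no filter, 0 with the cortical and 1 with the other-cell covariate, and genes at that p were 1308 and 1239. The sign of Socs3 turned with upper-quartile scaling (-0.046), a filter of 1 CPM in 4 libraries (-0.0029), the cortical (-0.42) and the other-cell covariate (-0.13). With the other-cell covariate Il2rg (0.074) and Il15ra (0.076) turned too. The cause was not tested. With 4 free bases between TTC and GAA the STAT motif was in the windows of 0 members, where with 3 it was in those of 3. Of all windows 6.95% held the motif with 4 free bases and 8.3% the motif with 3. With 1 tumour left out, genes called ran from 0 to 5 (3 without non-responder 1, 1 without non-responder 3, 5 without responder 3), members at an unadjusted p under 0.05 from 3 to 5, Il2ra from -0.94 to 1.84 and Socs3 from -0.12 to 0.17. No paired analysis was possible because the labels give no number or origin that pairs tumours. Cish in non-responders rests on 10 to 43 counts a tumour, which limits its precision by counting error.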
